A study of Mus musculus with 2 samples.

Results

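The Reelin pathway and the transcription factors of Cajal-Retzius cells were followed through 9 genes of the newborn mouse forebrain. The genes were chosen by name: the ligand gene Reln, the receptor genes Vldlr and Lrp8, the adaptor gene Dab1, and the transcription factor genes Trp73, Lhx1, Lhx5, Ebf2 and Ebf3. They are 9 of the 55536 genes listed in the gene tables, and all 9 were found by their identifiers in GENCODE release M21. The study measured polyadenylated RNA in whole forebrain of strain B6NCrl mice at age 0 days, the day of birth, without any treatment or second condition. It held 2 libraries, 1 from the single forebrain of pup 3 (replicate 2) and 1 from that of pup 1 (replicate 1), each made from 10 ng of RNA. The labels describe separate pups but give both the same donor identifier, and sex was not collected. Since no condition was varied, the data answer at which level and in which transcript forms these genes were present, and how far 1 pup lay from the other.

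Reelin is a large protein secreted into the outermost layer of the developing cortex, the marginal zone, by Cajal-Retzius cells, which are among the earliest cortical neurons. It binds the lipoprotein receptors VLDLR and ApoER2 (the product of Lrp8) on migrating neurons, which bind the adaptor Dab1 inside the cell. Src family kinases then phosphorylate Dab1, and the relay guides where neurons stop and how cortical layers form. Cajal-Retzius cells arise from several borders of the cortex, including the cortical hem and the septum, and carry Trp73, Lhx1, Lhx5, Ebf2 or Ebf3 depending on their origin. After birth other cells also make Reelin, among them GABAergic interneurons of the cortex and mitral cells of the olfactory bulb.

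The libraries held 41230878 expected counts in pup 3 and 40964891 in pup 1, so depth was near equal. An expected count is an estimated number of reads in which reads that match several transcripts are split between them. Levels are given as TPM, a share of all transcripts that is corrected for their length, so genes can be compared within a library. The regional genes of the forebrain check were present in both pups. Emx1, a factor of the cortex, stood at 32.62 TPM (pup 3) and 23.80 TPM (pup 1), Neurod6, a gene of cortical excitatory neurons, at 315.67 TPM (pup 3) and 196.84 TPM (pup 1), and Dlx2, a factor of inhibitory neurons, at 31.82 TPM (pup 3) and 35.59 TPM (pup 1). Of 5 hindbrain and cerebellum genes, none reached a TPM of 1 in both pups, their summed level was 0.07 TPM in pup 3, against 0.17 TPM in pup 1, and Hoxa2 and Hoxb2 were listed at 0. All 3 forebrain genes lay above the all-gene median of the difference between the pups, which is described with that difference. In whole tissue, fewer cells of a type and less RNA per cell cannot be told apart, which holds for every level given here.

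The adaptor stood highest, the ligand and its receptors came next at levels that overlapped, and the Cajal-Retzius factors stood well below them. Detection was set at 1 TPM in each pup, and 8 of the 9 genes passed it, the exception being Ebf3. The same was true of 26.6% of all listed genes and of 59.5% of protein-coding genes. With 2 values per gene, neighbours in the order were called apart only where their ranges over the 2 pups did not overlap.

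Reln, the ligand gene (ENSMUSG00000042453.14, minus strand, mm10 chr5:21884454-22344702), stood at 28.27 TPM in pup 3, against 33.47 TPM in pup 1. These values rested on 3652 expected counts in pup 3 and 4274 in pup 1. The deposited interval of the TPM within a library (its level is not stated) ran between 26.6 and 30.8 in pup 3 and between 31.1 and 36.4 in pup 1. Pup 3 was the lower of the pups, and those intervals did not overlap. Reln lay above 64.7% of the protein-coding genes detected in both pups.

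In gene TPM the receptor genes were at nearly the level of the ligand. Vldlr (ENSMUSG00000024924.14, plus strand, chr19:27216484-27254231), whose receptor also takes up lipoproteins, stood at 27.8 TPM in pup 3, against 33.89 TPM in pup 1. Lrp8 (ENSMUSG00000028613.14, plus strand, chr4:107802261-107876840) stood at 17.43 TPM in pup 3, against 31.66 TPM in pup 1. Counts were 2609 in pup 3 and 2855 in pup 1 for Vldlr, and 2462 in pup 3 and 3862 in pup 1 for Lrp8. Means were 30.9 ± 3.68 TPM for Reln, 30.8 ± 4.31 TPM for Vldlr and 24.5 ± 10.1 TPM for Lrp8 (SD, n = 2 pups). The ranges of these 3 genes overlapped, so their order was not resolved by 2 pups.

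Dab1 (ENSMUSG00000028519.16, plus strand, chr4:103619359-104744844), the adaptor that the receptors share, stood at 107.77 TPM in pup 3, against 116.66 TPM in pup 1, from 7937 counts in pup 3 and 7723 in pup 1. Its mean was 112 ± 6.29 TPM (SD, n = 2 pups), and its range lay above that of each other member. It stood above 88.7% of detected protein-coding genes. The log2 ratio of Dab1 to Reln within a library was 1.93 in pup 3 and 1.80 in pup 1 in gene TPM, and 2.76 in pup 3 and 2.36 in pup 1 in the TPM of protein-coding transcripts. The ratio of Vldlr to Lrp8 in gene TPM was 0.67 in pup 3 and 0.10 in pup 1 on the log2 scale.

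Among the transcription factor genes, Lhx1, Trp73, Lhx5 and Ebf2 formed a chain in which each overlapped its neighbour. Lhx1 (ENSMUSG00000018698.15, minus strand, chr11:84518284-84525535), a LIM homeodomain gene, stood at 2.01 TPM in pup 3, against 4.36 TPM in pup 1. Its paralog Lhx5 (ENSMUSG00000029595.9, plus strand, chr5:120431699-120441223) stood at 1.14 TPM in pup 3, against 3.03 TPM in pup 1. For both genes pup 3 lay over 2-fold below pup 1 in TPM, so the pups were far apart. The log2 ratio of Lhx1 to Lhx5 was nevertheless 0.77 in pup 3 and 0.51 in pup 1, with Lhx1 the higher in both.

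Trp73 (ENSMUSG00000029026.16, minus strand, chr4:154056253-154140208), which encodes the p53 relative p73, stood at 2.82 TPM in pup 3, against 3.37 TPM in pup 1. The EBF genes encode helix-loop-helix factors named after early B cells. Ebf2 (ENSMUSG00000022053.13, plus strand, chr14:67233292-67430918) stood at 1.16 TPM in pup 3, against 1.35 TPM in pup 1. Ebf3 (ENSMUSG00000010476.14, minus strand, chr7:137193673-137314445) stood at 0.31 TPM in pup 3, against 0.55 TPM in pup 1, on 14 counts in pup 3 and 67 in pup 1. Ebf3 was thus below the detection limit in both pups, and its range lay under that of Ebf2. Ebf2 was near the bottom of what was detected, above only 0.610% of detected protein-coding genes, against 12.8% for Lhx1, 12.3% for Trp73 and 6.59% for Lhx5. The log2 ratio of Ebf2 to Ebf3 was 1.62 in pup 3 and 1.16 in pup 1.

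**Figure D1:**
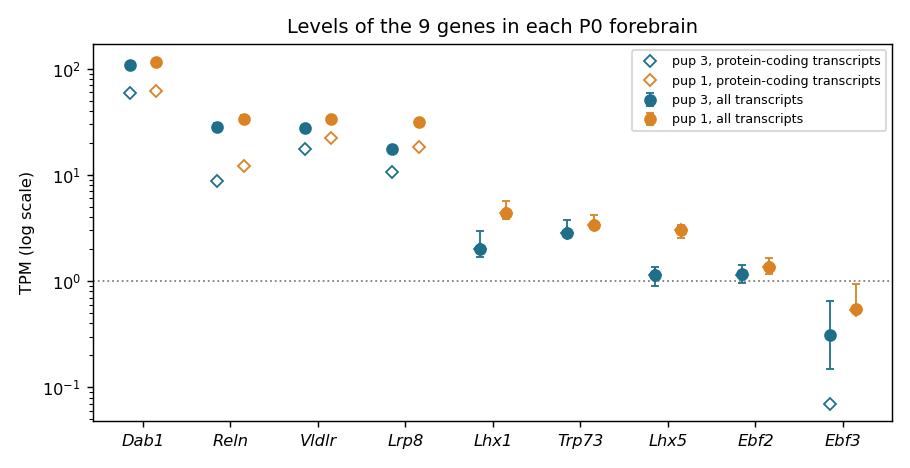
TPM of the 9 genes on a log axis, with pup 3 left of pup 1 at each gene. Filled points are the gene's TPM with the deposited interval within that library as bars, open diamonds are the summed TPM of its transcripts annotated as protein coding, and the dotted line marks a TPM of 1. Dab1 lies above 100 TPM, Reln, Vldlr and Lrp8 lie between 17.43 and 33.89 TPM, and Ebf3 lies below 1 TPM in both pups. The open diamond of Reln lies well below its filled point in both pups.

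Transcripts not annotated as coding for a full protein had large estimated shares in the gene totals of the ligand, the receptors and the adaptor. The 9 genes have 67 listed transcripts, of which 49 had counts in at least 1 pup. By share of the gene's TPM, the leading transcript was not annotated as protein coding in 3 of the 8 members that have several transcripts, namely Reln, Vldlr and Dab1. Among detected protein-coding genes with several transcripts this held for 9.77%. Ranked by share of expected counts, which weighs long transcripts more, the count was 1 of 8, Vldlr alone. The share of all such genes under that ranking was not computed, so this count has no background.

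For Reln the unit decided which transcript led. Reln-205, a processed transcript of 891 bases from the 3′ end of the gene with no coding sequence, held 53.94% of the TPM in pup 3 and 49.69% in pup 1. It has no base of its own, since every base also lies in another Reln transcript. Of its bases, 761 lie in exons of the full-length Reln-207. Its share is thus an estimated split of shared reads, and whether it is a real transcript was not settled here. The gene TPM of Reln, and so its place beside the receptors, rests in part on that split. Reln-207, with 11699 bases in 65 exons and 10383 coding bases, held 30.85% of the TPM in pup 3 and 35.64% in pup 1. By expected counts it held 81.5% in pup 3 and 84.5% in pup 1, and Reln-205 held 9.73% in pup 3 and 8.05% in pup 1. Reln-203, annotated as a retained intron, held 11.87% of the TPM in pup 3 and 8.80% in pup 1.

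Counting protein-coding transcripts alone therefore changed the order. Reln then stood at 8.72 TPM in pup 3, against 12.04 TPM in pup 1, which moved it to rank 4 from rank 2. On that count Dab1 stood at 59.5 TPM (pup 3) and 62.08 TPM (pup 1), Vldlr at 17.54 TPM (pup 3) and 22.29 TPM (pup 1) and Lrp8 at 10.74 TPM (pup 3) and 18.44 TPM (pup 1). Vldlr still overlapped Lrp8, and Lrp8 still overlapped Reln. The Reln sum is of full-length forms, while those of Dab1, Vldlr and Lrp8 hold transcripts annotated with incomplete ends. Among these are Dab1-202, Dab1-206 and Vldlr-206, the last at 5.37 TPM (pup 3) and 5.71 TPM (pup 1). Lrp8-202, whose coding start is incomplete, made all of the Lrp8 sum. The new rank of Reln thus does not compare like forms. Coding transcripts made 30.8% of Reln TPM in pup 3 and 36.0% in pup 1, against a median of 93.2% over detected protein-coding genes with several transcripts. The log2 ratio of Dab1 to Reln became 2.76 in pup 3 and 2.36 in pup 1.

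Near its 3′ end Reln carries a microexon of 6 bases just before the last exon, at chr5:21891562-21891567 on the minus strand. It is known to be used in neurons, and its inclusion changes the basic tail of the protein. Its letters are shown because they separate the only full-length coding transcripts listed. The exon is in capitals and 15 bases of each neighbouring exon in lower case, as in every exon below, and all are from GENCODE M21 transcripts on GRCm38 (mm10), read along the gene's strand.
Reln microexon: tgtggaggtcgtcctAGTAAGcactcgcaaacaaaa

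Reln-207, which has the microexon, had 2977 counts in pup 3 and 3613 in pup 1. Reln-201, which lacks it, was listed at 0 in pup 3 and had 31.1 counts in pup 1. The share of TPM with the microexon among transcripts that span it was 100% in pup 3 and 99.1% in pup 1. The pups thus differed little in it. The microexon is short, and the 2 transcripts also differ in total length, 11699 bases for Reln-207 and 10885 for Reln-201, so the split does not rest on these 6 bases alone.

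The receptor genes varied in exons that code for the ligand-binding repeats, the outer stalk and the inner tail. Lrp8 is known for an exon of 177 bases that inserts a stretch into the cytoplasmic tail and binds scaffold proteins at synapses, and Vldlr for an exon of 84 bases that codes for the sugar-bearing stalk outside the membrane. Both keep the reading frame. They are shown because each was present in the minority of transcripts here. The Lrp8 exon lies at chr4:107870012-107870188 and the Vldlr exon at chr19:27246593-27246676, both on the plus strand.
Lrp8 cytoplasmic insert exon: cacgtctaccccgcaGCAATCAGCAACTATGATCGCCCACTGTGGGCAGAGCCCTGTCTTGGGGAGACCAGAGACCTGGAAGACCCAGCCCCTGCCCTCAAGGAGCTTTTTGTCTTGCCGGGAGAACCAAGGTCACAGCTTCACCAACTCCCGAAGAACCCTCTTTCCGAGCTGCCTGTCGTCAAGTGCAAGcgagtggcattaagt
Vldlr O-linked sugar exon: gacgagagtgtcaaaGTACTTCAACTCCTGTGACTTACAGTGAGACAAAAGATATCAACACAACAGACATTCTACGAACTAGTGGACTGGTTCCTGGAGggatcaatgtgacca

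The Lrp8 insert was in 24.0% of the TPM of spanning transcripts in pup 3 and in 27.6% in pup 1. The Vldlr stalk exon was in 13.2% in pup 3 and 11.8% in pup 1. An Lrp8 exon of 381 bases that codes for ligand-binding repeats (chr4:107846239-107846619) was in 19.7% in pup 3 and 23.0% in pup 1. An exon of 123 bases for a single repeat (chr4:107848281-107848403) was in 37.5% in pup 3 and 40.5% in pup 1. In Vldlr the exon for the third repeat, also of 123 bases (chr19:27236240-27236362), was in 62.0% in pup 3 and 58.6% in pup 1. In both pups the forms without the insert, without the stalk exon and without the 381 bases were the more abundant. The third repeat of Vldlr was kept mainly through Vldlr-201, which is not annotated as protein coding. Pup 3 had 9.9 of its 13.78 TPM with this repeat from Vldlr-201, and pup 1 had 11.1 of 16.36. Among protein-coding transcripts that span the repeat, the form lacking it, Vldlr-202, was the more abundant. It reached 8.07 TPM in pup 3, where Vldlr-207 and Vldlr-208, which keep the repeat, had 2.89 and 0.99. For pup 1 these values were 11.06, 3.23 and 2.03.

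The exon shares are tied to whole transcripts rather than to single junctions. The Lrp8 insert was counted only through Lrp8-209, annotated as a target of nonsense-mediated decay, the pathway that degrades messages with an early stop. That transcript held 19.48% of Lrp8 TPM in pup 3 and 22.32% in pup 1. Lrp8-202, which lacks the insert and carries 2855 bases found in no other Lrp8 transcript, held 61.64% in pup 3 and 58.23% in pup 1, and its annotated coding start is incomplete. Lrp8-212, a processed transcript of 797 bases, held 17.56% in pup 3 and 17.39% in pup 1. The 4 other transcripts of Lrp8 annotated as protein coding, Lrp8-201, Lrp8-203, Lrp8-204 and Lrp8-206, were listed at 0 counts in both pups.

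In Vldlr, Vldlr-201, annotated for nonsense-mediated decay, held 35.60% of the TPM in pup 3 and 32.75% in pup 1, and the protein-coding Vldlr-202 held 29.03% in pup 3 and 32.65% in pup 1. Vldlr-201 was ahead in both pups, by a small margin in pup 1, and neither transcript has a base of its own. Their shares are thus estimates from shared reads. Vldlr-206, a fragment of 774 bases with incomplete ends, held 19.30% in pup 3 and 16.85% in pup 1. Vldlr-207, the 1 listed form with the stalk exon, held 10.38% of the TPM in pup 3 and 9.53% in pup 1. It is 7971 bases long with 4369 bases of its own, so its share of expected counts was larger, at 25.6% in pup 3 and 23.2% in pup 1. Vldlr-208, which keeps the third repeat and lacks the stalk exon, held 3.55% in pup 3 and 5.99% in pup 1.

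**Figure D2:**
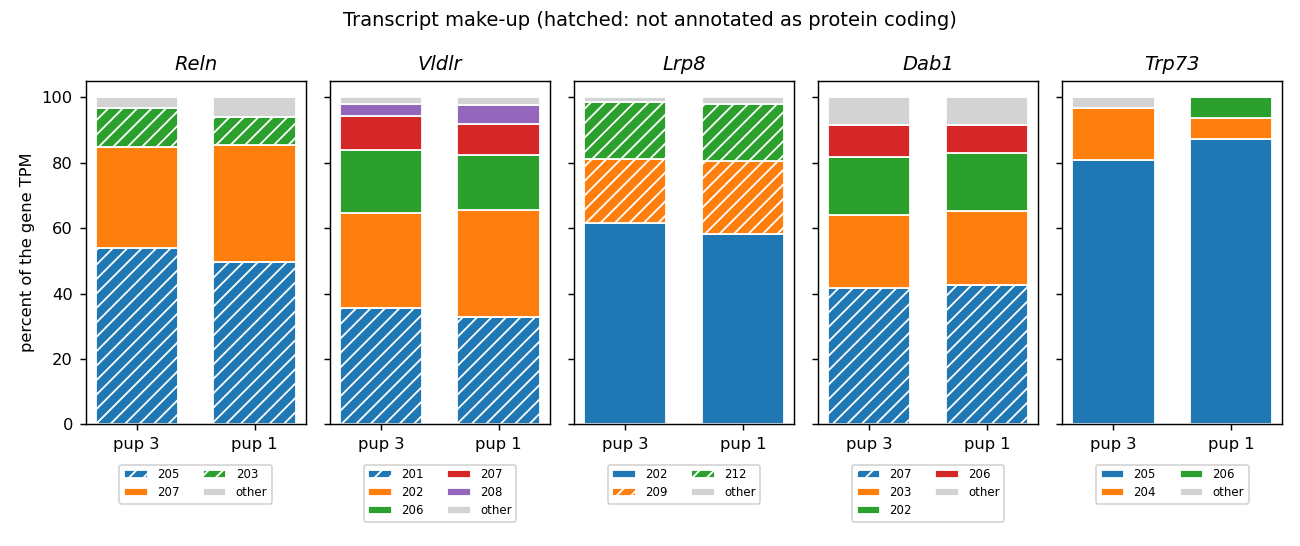
Share of each gene's TPM by transcript in pup 3 (left bar) and pup 1 (right bar) for Reln, Vldlr, Lrp8, Dab1 and Trp73, in percent; legend numbers are transcript numbers, grey is the sum of all others, and hatching marks transcripts not annotated as protein coding. Hatched segments lead in Reln, Vldlr and Dab1, at 53.94%, 35.60% and 41.82% in pup 3.

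Dab1 was split mainly between a form with an early stop and a long coding form. Dab1-207, annotated for nonsense-mediated decay, held 41.82% of the TPM in pup 3 and 42.67% in pup 1. Dab1-203, the coding form with 1665 coding bases and a long 3′ exon, held 22.06% in pup 3 and 22.45% in pup 1. The shorter coding forms Dab1-202 and Dab1-206, both annotated with incomplete ends, held 18.01% and 9.79% in pup 3, against 17.91% and 8.59% in pup 1. By expected counts Dab1-203 led, with 45.6% in pup 3 and 45.8% in pup 1, ahead of Dab1-207 with 39.5% in pup 3 and 39.8% in pup 1. The make-up was nearly the same in both pups, with SDs of 0.849 percentage points or less for these 4.

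An exon of 39 bases and one of 270 bases separate these Dab1 forms. The short exon (chr4:104680070-104680108, plus strand) lies in the stretch of Dab1 that holds tyrosines phosphorylated by Src family kinases when Reelin binds. The long exon (chr4:104704204-104704473, plus strand) brings an early end, as only its first 90 bases are annotated as coding. Both are shown, the long one by those 90 bases after 15 bases of the exon before it, because Dab1-203 carries the first without the second and Dab1-207 the second without the first.
Dab1 short exon: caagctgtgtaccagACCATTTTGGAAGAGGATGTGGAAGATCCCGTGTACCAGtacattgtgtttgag
Dab1 long inserted exon, first 90 bases: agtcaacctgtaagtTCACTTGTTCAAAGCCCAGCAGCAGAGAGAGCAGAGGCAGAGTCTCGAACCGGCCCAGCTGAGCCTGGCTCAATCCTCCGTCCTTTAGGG

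The short exon was in 48.7% of the spanning TPM in pup 3 and in 48.4% in pup 1. The long exon was in 65.1% in both pups. The SD over the pups was 0.233 percentage points for the short exon and 0.0235 for the long one. Since the same transcripts set both shares, they are not independent of each other.

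**Figure D3:**
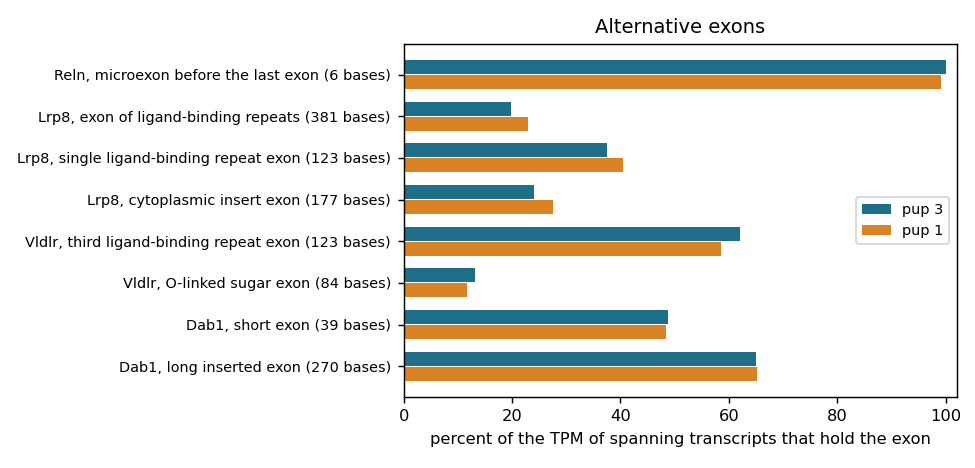
Share of the TPM of spanning transcripts that hold each of 8 alternative exons, in percent, with pup 3 above pup 1. The Reln microexon is at 100% in pup 3 and 99.1% in pup 1, the Lrp8 and Vldlr exons lie between 11.8% and 62.0%, and the Dab1 long exon is at 65.1% in both.

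Trp73 was present mainly in its ΔN form. The gene has an upstream start, which gives the TA proteins with an activation domain, and an internal start, which gives ΔN proteins that lack it and can oppose p53 family members. The first coding bases of both are shown because they are what the forms do not share. The internal start lies at chr4:154096894-154096932 and the TA exons at chr4:154104320-154104895, both on the minus strand. Capitals mark the coding bases particular to each start and the lower case the 15 bases of the exon that both enter.
Trp73 ΔN start: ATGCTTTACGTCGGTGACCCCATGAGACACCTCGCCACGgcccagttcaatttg
Trp73 TA start, 183 bases over 2 exons: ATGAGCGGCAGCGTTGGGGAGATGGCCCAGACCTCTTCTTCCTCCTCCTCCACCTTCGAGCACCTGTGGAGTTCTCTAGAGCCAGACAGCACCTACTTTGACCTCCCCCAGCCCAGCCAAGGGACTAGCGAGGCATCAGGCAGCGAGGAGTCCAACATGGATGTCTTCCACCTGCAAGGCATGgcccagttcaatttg

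Transcripts from the internal start summed to 2.38 TPM in pup 3, against 2.93 TPM in pup 1, from 317.8 expected counts in pup 3 and 356.4 in pup 1. Those with the TA exons summed to 0.45 TPM in pup 3, against 0.43 TPM in pup 1, from 65.2 expected counts in pup 3 and 31.53 in pup 1. The ΔN share of Trp73 TPM was 84.1% in pup 3 and 87.2% in pup 1, and the TA share was 15.9% in pup 3 and 12.8% in pup 1. The ΔN form was the larger in both pups by a margin well over the SD between them, 2.16 percentage points. Trp73-205 (ΔN) held 80.73% in pup 3 and 87.16% in pup 1, and Trp73-204 (TA) 15.89% in pup 3 and 6.61% in pup 1. Trp73-201 (ΔN) had 5.91 counts in pup 3 and was listed at 0 in pup 1, while Trp73-206 (TA), 613 bases long, was listed at 0 in pup 3 and had 2.81 counts in pup 1. Trp73 is also made by multiciliated cells of the ventricle walls. Of 4 genes of ependyma and choroid plexus, 3 were detected in both pups, and their summed level was 1042 TPM in pup 3, against 1331 TPM in pup 1, nearly all of it Ttr of the choroid plexus at 1027 TPM (pup 3) and 1311 TPM (pup 1). Foxj1, the factor for motile cilia, stood at 12.52 TPM in pup 3, against 16.47 TPM in pup 1, Ccno at 2.04 TPM (pup 3) and 2.76 TPM (pup 1) and Mcidas at 0.60 TPM (pup 3) and 1.53 TPM (pup 1), and their part in the Trp73 level was not tested.

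The homeodomain and EBF genes rested on few reads, and their transcript shares moved more. Lhx5 has 1 listed transcript. Lhx1-201, the full-length form, held 61.45% of Lhx1 TPM in pup 3 and 75.28% in pup 1, and Lhx1-204 held the rest. Ebf2-203 held 66.96% in pup 3 and 83.71% in pup 1, with Ebf2-202 at 31.14% in pup 3 and 6.22% in pup 1 and Ebf2-201 at 0% in pup 3 and 10.07% in pup 1. In Ebf3 the pups shared no leading transcript. The coding Ebf3-201 was listed at 0 in pup 3 and held 96.34% in pup 1, on 64.96 counts. In pup 3 the noncoding Ebf3-206 held 78.89% on 4.6 counts and Ebf3-204 held 21.11% on 9.4 counts, so its leading form there is not resolved at this depth.

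Without strand, reads of overlapping genes cannot be told apart, and no source used here says whether strand was kept. The annotation places 21 genes over the members. Of these, 12 were listed at 0 in both pups and 5 share exon bases with a member. Only Gm27199, an antisense gene at the start of Lhx5, reached a TPM of 1 in both pups, with 5.12 TPM in pup 3, against 4.75 TPM in pup 1, from 79 counts in pup 3 and 65 in pup 1. Of its 623 exon bases, 69 lie in Lhx5 exons. Its counts were close in number to the 87 counts of Lhx5 in pup 3 and under the 205 in pup 1, and it was slightly higher in pup 3, where Lhx5 was lower. Trp73os, antisense to Trp73, shares 280 exon bases with it and had 0 counts in pup 3 and 2.09 in pup 1.

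Of the 8 members that averaged at least 1 TPM, the pups differed most in Lhx5, Lhx1 and Lrp8, and less in the other 5. All 9 members had a lower TPM in pup 3, but so did 79.6% of the 15463 genes past the same minimum, whose median log2 ratio of TPM + 1 in pup 3 over pup 1 was -0.24. In read counts scaled by depth and by TMM, which aligns the bulk of genes, that median was 0.04, and Dab1, Trp73 and Vldlr were slightly higher in pup 3, by 0.20, 0.13 and 0.03 on the log2 scale. Members are therefore read relative to that median. Of the 8 members past that minimum, 4 lay below the median, against 50% of all genes. No member was over 2-fold apart on this scale, while 2.37% of genes were over 2-fold lower and 0.459% over 2-fold higher in pup 3. With 2 pups and 1 group no p-value was given, since exact sign flipping of 2 values gives no p under 0.5.

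The difference of Lhx5 was -0.91 on the log2 scale, or -0.68 relative to the median, and 3.30% of genes had a lower ratio. That of Lhx1 was -0.83, or -0.60 relative to the median, with 4.68% of genes lower. Lrp8 differed by -0.83, or -0.59 relative to the median, with 4.81% of genes lower. The ratio of count rates, expected counts over the library total, was 0.422 for Lhx5 with an exact 95% Clopper-Pearson interval of 0.324 to 0.544. It was 0.454 for Lhx1 (0.375 to 0.549) and 0.633 for Lrp8 (0.602 to 0.666). These intervals cover counting error only. All 3 lie below 1, as do those of Reln, Vldlr and Ebf3 given further on, so this does not set the 3 genes apart.

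Because 1 was added to each TPM, the log2 differences of low genes are understated. With 0.1 added instead, Lhx5 stood at -1.34 and Lhx1 at -1.08, so 2 members were over 2-fold lower in pup 3, as were 5.28% of the 15463 genes. Among protein-coding genes with a mean TPM from 1 to 5, the class in which both fall, 9.28% were over 2-fold lower on that scale, and 1.72% with 1 added. The distance between the pups in these genes was thus in the lower tail for their level, but shared by many other genes.

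Reln lay on the median, at -0.24 and 0.00 relative to it. Vldlr lay at -0.04 relative to the median, Trp73 at 0.04, Ebf2 and Dab1 at 0.12 each. In TMM-scaled counts Reln and Ebf2 lay below the median on that scale, at -0.10 and -0.09 relative to it. Count rates were closest for Dab1, with a ratio of 1.02 (0.989 to 1.05), and for Trp73, with 0.981 (0.849 to 1.13). Reln had a ratio of 0.849 (0.812 to 0.888), Vldlr 0.908 (0.861 to 0.958) and Ebf2 0.848 (0.675 to 1.06). Ebf3, below the minimum, had 0.208 (0.108 to 0.373), but on 14 counts in pup 3 and 67 in pup 1. Counts were lower in pup 3 for 8 of the 9 members, with Dab1 the exception. The share of all genes with lower counts was not computed. In counts scaled by depth alone, the median log2 ratio of all genes was -0.11, so a ratio of 1 is not their centre.

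**Figure D4:**
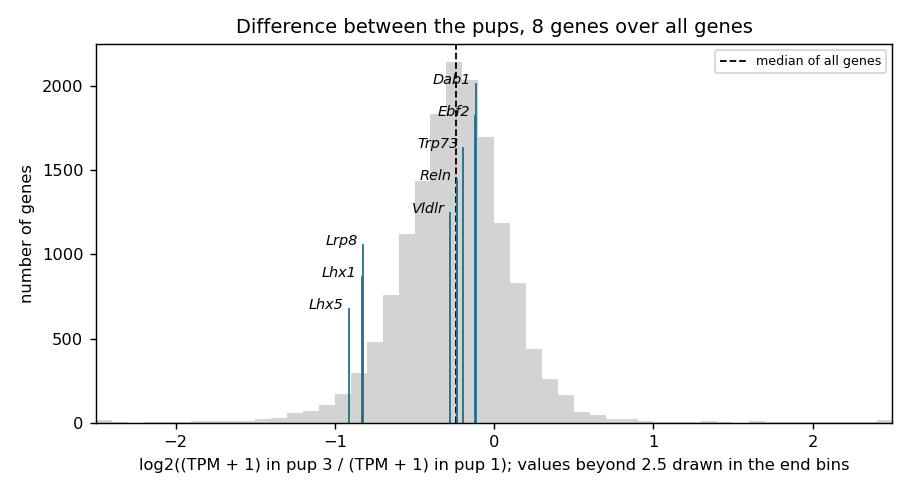
Histogram over 15463 genes of the log2 ratio of TPM + 1 in pup 3 over pup 1, with a line for each of the 8 members that averaged at least 1 TPM and a dashed line at the all-gene median of -0.24. The heights of the member lines only keep the names apart. Lhx5, Lhx1 and Lrp8 lie in the lower tail, between -0.91 and -0.83, and the other 5 lie near the median.

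Transcript length moved with the difference. Protein-coding genes whose leading transcript is under 1000 bases had a median of -0.02, those from 2000 to under 4000 bases -0.26, and those of 6000 bases or more -0.50. Lrp8, led by a transcript of 6627 bases, falls in the longest class. Lhx1 and Lhx5 fall in the class of 2000 to under 4000 bases, as do Vldlr and Dab1. Trp73 and Ebf2, at -0.19 and -0.12, fall in that of 4000 to under 6000 bases, whose median was -0.39. Reln, at -0.24, falls in the shortest class through Reln-205, although by expected counts it is led by Reln-207 of 11699 bases. The part of length in these differences was not tested.

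Genes of other regions did not all lie on one side of the all-gene median. The 3 hypothalamic genes summed to 3.58 TPM in pup 3, against 8.03 TPM in pup 1, 1 of 3 was detected, and both that averaged at least 1 TPM lay below the all-gene median. Foxb1, a gene of the mammillary region, stood at 0.37 TPM (pup 3) and 1.68 TPM (pup 1), Nkx2-1 at 3.06 TPM (pup 3) and 5.94 TPM (pup 1) and Sim1 at 0.15 TPM (pup 3) and 0.41 TPM (pup 1). Lhx1 and Lhx5 are known to be expressed in the mammillary hypothalamus as well as in Cajal-Retzius cells, and the part of these regions in their difference was not tested. All 3 genes listed for mitral cells of the olfactory bulb and all 3 forebrain genes lay above the median. The middle gene of each list did so by 0.48 and 0.68 on the log2 scale. Of 11 paralogs and partners of the transcription factors compared, 6 lay below the median and 5 above, and the 1 over 2-fold lower in pup 3 was Lhx9. Lhx9, a related gene of the thalamus and other regions, was at 5.05 TPM in pup 3, against 22.14 TPM in pup 1, a log2 difference of -1.94.

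The other genes of Cajal-Retzius cells and their origins were mostly present at low to middle levels. Of 8 such genes beyond the members, 8 were detected in both pups, with a median of 7.11 TPM. Their median difference was -0.26 relative to all genes, 5 lay below the median and 3 above, and 1 was over 2-fold lower. Calb2, the calcium-binding protein calretinin, stood at 140.92 TPM in pup 3, against 236.26 TPM in pup 1. Nr2f2, a nuclear receptor that also marks interneurons and thalamus, stood at 36.89 TPM (pup 3) and 76.69 TPM (pup 1) and was the 1 over 2-fold lower. Tbr1, a factor of deep-layer and Cajal-Retzius neurons, was level at 22.92 TPM in pup 3, against 22.09 TPM in pup 1. Nhlh2, at 5.54 TPM in pup 3, against 12.08 TPM in pup 1, lay just at the 2-fold limit.

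Of the 7 genes of the cortical hem and septum, where Cajal-Retzius cells are born earlier in development, 2 were detected in both pups. Wnt5a stood at 5.79 TPM in pup 3, against 11.83 TPM in pup 1, and Rspo3, a secreted enhancer of Wnt signals, at 5.32 TPM (pup 3) and 7.18 TPM (pup 1). Lmx1a and Wnt8b reached 0.43 and 0.48 TPM in pup 3 and 1.28 and 0.99 TPM in pup 1. Dbx1, Wnt2b and Wnt3a, the marker of the hem, lay between 0.12 and 0.17 TPM in pup 3 and between 0.24 and 0.50 TPM in pup 1. In TPM all 7 were lower in pup 3, as were 79.6% of genes that averaged at least 1 TPM. Both hem and septum genes with a mean over 1 lay below the all-gene median.

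Genes listed for other Reelin-making cells were present as well. Whole tissue does not show which cells held this RNA, so the levels of a list are not levels of Reelin-making cells. All 6 genes listed for Reelin-type interneurons were detected, with a median level of 46.5 TPM and a median difference of 0.05 relative to all genes. That median level spans a wide range. Ndnf and Lamp5 were the lowest of the 6, at 4.37 and 3.69 TPM in pup 3 and 5.04 and 4.41 TPM in pup 1. Sst stood at 407.55 TPM in pup 3, against 425.97 TPM in pup 1, Npy at 511.37 TPM (pup 3) and 266.82 TPM (pup 1), the GABA enzyme gene Gad1 at 71.19 TPM (pup 3) and 100.58 TPM (pup 1), and Sp8 at 6.45 TPM (pup 3) and 7.61 TPM (pup 1). The summed level was 1005 TPM in pup 3, against 810.4 TPM in pup 1, and the higher sum in pup 3 rested on Npy. The other 5 genes were each lower in pup 3, as were 79.6% of genes that averaged at least 1 TPM. These 5 summed to 493 TPM in pup 3, against 544 TPM in pup 1. All 3 genes listed for mitral cells were detected, summing to 17.6 TPM in pup 3, against 14.2 TPM in pup 1. Whether mitral cells held this RNA was not tested. Cdhr1 stood at 11.46 TPM (pup 3) and 8.33 TPM (pup 1), Eomes at 3.8 TPM (pup 3) and 4.01 TPM (pup 1) and Tbx21 at 2.33 TPM (pup 3) and 1.81 TPM (pup 1). Ndnf is shared by the interneuron list and the Cajal-Retzius list. How much of Reln came from each kind of cell was not tested. Mural cells of vessels, which also make Ebf1, had 4 of 4 genes detected, summing to 28.9 TPM in pup 3, against 33.9 TPM in pup 1, with Rgs5 and Pdgfrb at 11.74 and 6.13 TPM in pup 3 and 12.38 and 8.54 TPM in pup 1. Kcnj8 and Cspg4 stood at 7.04 and 4.03 TPM in pup 3 and 6.77 and 6.17 TPM in pup 1. In the olfactory epithelium list 1 of 3 genes was detected, Gng13 at 19.47 TPM in pup 3, against 14.01 TPM in pup 1, while Omp stood at 0.30 TPM (pup 3) and 0.26 TPM (pup 1) and Cnga2 at 0.05 TPM in both.

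The relay inside the cell stood higher than the ligand and receptors in most of its genes. All 20 genes listed for it were detected, with a median level of 51.3 TPM, with 11 below and 9 above the all-gene median of the difference and none over 2-fold apart. Cfl1, which encodes the actin-severing cofilin that the pathway acts on through Limk1, stood at 3793 TPM in pup 3, against 3485 TPM in pup 1. Cdk5, a kinase whose loss also disturbs layering, stood at 130.86 TPM in pup 3, against 129.17 TPM in pup 1. The small GTPase gene Rap1b stood at 100.53 TPM in pup 3, against 122.69 TPM in pup 1, and Cdk5r1, the activator of Cdk5, at 96.79 TPM (pup 3) and 96.40 TPM (pup 1).

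The kinase genes Fyn and Src, which act on Dab1, stood lower than Cfl1, Cdk5, Rap1b and Cdk5r1. Against the median of the relay genes, 46.95 TPM in pup 3 and 55.64 TPM in pup 1, Fyn lay above and Src below. Fyn stood at 59.69 TPM in pup 3, against 70.87 TPM in pup 1, and Src at 18.10 TPM in pup 3, against 24.05 TPM in pup 1. Crk, an adaptor that binds phosphorylated Dab1, stood at 72.24 TPM in pup 3, against 77.19 TPM in pup 1. Pafah1b1, the LIS1 gene, whose product meets phosphorylated Dab1, stood at 45.61 TPM in pup 3, against 52.99 TPM in pup 1. In gene TPM, Dab1 itself lay above each of these 4 in both pups. Its protein-coding transcripts, at 59.5 TPM (pup 3) and 62.08 TPM (pup 1), lay below the gene TPM of Crk and Fyn in both. The coding TPM of these 4 was not compared. Fyn, Src, Crk and Pafah1b1 were named, as were Nhlh2, Ebf1, Ndnf and Lamp5, after their values were seen.

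Genes that end the signal had a lower median level than the relay genes, with Rnf7 well above it. Of the 7 genes for turnover of Dab1 and the receptors, 7 were detected, with a median level of 8.64 TPM. The ubiquitin ligase that removes phosphorylated Dab1 is built on Cul5 and Rnf7, at 20.02 and 166.53 TPM in pup 3 and 33.79 and 160.77 TPM in pup 1. Socs6, which brings Dab1 to it, stood at 13.71 TPM in pup 3, against 16.09 TPM in pup 1. Cbl, another ubiquitin ligase, was the 1 over 2-fold lower in pup 3, at 5.37 TPM against 11.91 TPM in pup 1. Of 5 proteases that cut Reelin, 4 were detected. Plat, which encodes tissue plasminogen activator, stood at 40.01 TPM in pup 3, against 51.59 TPM in pup 1, Adamts3 at 4.21 TPM (pup 3) and 4.81 TPM (pup 1), Adamts2 at 3.24 TPM (pup 3) and 3.65 TPM (pup 1), Adamts4 at 2.04 TPM (pup 3) and 4.65 TPM (pup 1) and Adamts5, under the limit in pup 3, at 0.89 TPM (pup 3) and 1.52 TPM (pup 1).

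Relatives of the members gave a scale for their levels. In the list of other lipoprotein receptors, adaptors and ligands, 10 of 11 genes were detected, with a median level of 5.80 TPM, and the median difference was -0.22 relative to all genes. Apoe, a lipoprotein that shares the Reelin receptors, stood at 1020 TPM in pup 3, against 1235 TPM in pup 1, and Clu, another such ligand, at 121.08 TPM (pup 3) and 168.12 TPM (pup 1). Lrp1, a large receptor of the family, stood at 33.54 TPM in pup 3, against 58.17 TPM in pup 1. Dab2, the paralog of Dab1, stood at 11.52 TPM in pup 3, against 11.85 TPM in pup 1, below Dab1 in both. Lrp2 was at 0.03 TPM in pup 3, against 0.12 TPM in pup 1.

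Of 12 paralogs and partners of the transcription factors, 11 were detected, with a median level of 27.1 TPM. The LIM-only genes Lmo4 and Lmo3 stood at 205.44 and 144.87 TPM in pup 3 and 193.43 and 171.14 TPM in pup 1. Ldb1, the cofactor that LIM homeodomain proteins bind, stood at 65.66 TPM in pup 3, against 74.66 TPM in pup 1. Trp53 stood at 47.55 TPM in pup 3, against 43.32 TPM in pup 1, above Trp73 in both, and Trp63 at 0.12 TPM in pup 3, against 0.19 TPM in pup 1, below it. Ebf1, a gene also of striatal neurons, stood at 12.40 TPM in pup 3, against 17.02 TPM in pup 1, above Ebf2 and Ebf3 in both pups.

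**Figure D5:**
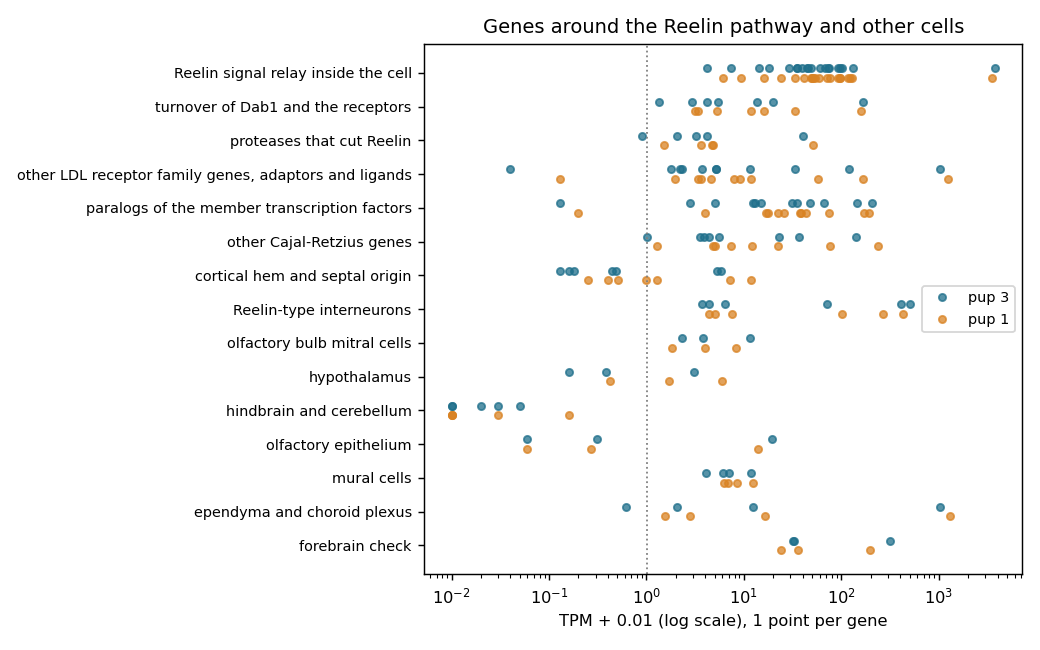
TPM + 0.01 of every gene in 15 lists on a log axis, 1 point per gene, with pup 3 above pup 1 in each row and the dotted line at a TPM of 1. The relay genes lie to the right of the line in both pups, the hindbrain and cerebellum genes lie left of it, and the hypothalamic genes lie further left in pup 3 than in pup 1.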

How the data were processed

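Polyadenylated RNA was measured in forebrain of 2 newborn pups, which form 1 group. Per the labels' protocols, RNA was extracted with mirVana, cDNA synthesis used oligo-dT primers, and Nextera tagmentation gave the libraries, with ERCC spike-in RNAs. The deposited tables, for mm10 with GENCODE M21 and M4, hold expected counts per gene and transcript as the authors estimated them. They also hold TPM and FPKM, which the authors scaled by effective length and depth, and, deposited beside them, the percent of a gene's TPM that each transcript takes. The aligner, quantifier and strand setting were named by no source used here, and the column names are those of RSEM.

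M21 is the basis of all values, and M4 served for comparison. Symbols, biotypes, exons and sequences were taken from GENCODE M21 on GRCm38, with which all 9 members matched. Alignments and proteins were not analysed here. Tables were read with Python 3.11.15, pandas 2.3.3, numpy 2.4.6 and scipy 1.17.1, and figures drawn with matplotlib 3.10.9. Differences are log2 of TPM + 1 in pup 3 over pup 1, so a positive value is higher in pup 3, and the background is genes that averaged at least 1 TPM. Ratios within a library used a pseudocount of 0.1. Scaling factors for 2 alternatives came from edgeR 4.0.16 and DESeq2 1.42.0 in R 4.3.3, on expected counts rounded to whole numbers; neither was used for a test. An exon's share is the TPM of transcripts that hold it over that of all transcripts that span its place. The ratio of counts, its interval and a 2-fold call made on scaled counts were tried on simulated counts of well-covered genes. The 2-fold call on TPM + 1, as used here, was not tested. Differences near the 2-fold limit and genes with as few counts as Ebf3 were not tested either. Transcript shares, exon shares and list medians were not tested in this way. Errors are SDs over 2 pups, which measure the spread between these libraries. Reads carry no molecular identifiers in the tables, so intervals cover counting error only.

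The members and the 15 companion lists were chosen with earlier results of these data known. From the lists, 3 genes are not reported here and entered no list's count or sum. Named were all members, member transcripts with a share of 5% or more in a pup, every Trp73 transcript with counts, the 4 highest genes of each list, those under a TPM of 1 or over 2-fold apart, and overlapping genes. Alternatives were FPKM, posterior mean TPM, M4, other minimums and pseudocounts, count scalings and leaving out a pup. After the data were seen, coding transcripts alone and shares of expected counts were added.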

Additional observations from a re-analysis of the deposited data

How the results depend on the processing

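No paired analysis was possible because the 2 libraries form 1 group. The median level of the 9 members, 3.19 TPM, lay between 2.82 and 4.36 TPM when either pup was left out, and with replicate 2 (pup 3) left out it was 4.36 TPM. The number of members detected was 6 at a minimum of 2 TPM and in FPKM, and 8 in the other settings tried. No member was over 2-fold apart in posterior mean TPM, TMM-scaled CPM, DESeq2-scaled counts or M4, against 1 (Lhx5) with a pseudocount of 0.5 and 2 (Lhx1 and Lhx5) with 0.1. The log2 ratio of Vldlr to Lrp8, 0.38 ± 0.40 in TPM, was -0.18 in expected counts, which are not per length, and 0.67 in pup 3 and 0.10 in pup 1 taken alone. That of Lhx1 to Lhx5, 0.64 ± 0.18, was 0.83 in expected counts and 0.45 with a pseudocount of 1. That of Ebf2 to Ebf3, 1.39 ± 0.33, was 2.36 in expected counts, 0.66 with a pseudocount of 1, 1.95 in M4 and 2.03 in coding transcripts alone. That of Dab1 to Reln, 1.86 ± 0.09, was 0.99 in expected counts and 2.56 in coding transcripts alone. With either pup left out, the ratio lay between 0.51 and 0.77 for Lhx1 to Lhx5, 1.16 and 1.62 for Ebf2 to Ebf3, and 1.80 and 1.93 for Dab1 to Reln. Members led by a transcript not annotated as protein coding numbered 1 by expected counts and 3 or 4 in the other settings, the fourth being Ebf3. Of the alternatives for values of comparisons, 52 stayed within the spread between the pups, within counting error or, for counts of members, within 1.5 times the count, and 13 moved. For single genes, 152 stayed and 23 moved. Both tallies hold settings that could not move. Each of 2 values always lies within their SD of the mean. Leaving out a pup thus says nothing of the stability of a gene's level, a pair ratio or a fixed transcript's share. The leading share of Ebf3 had an SD of 68.1 percentage points, so staying within it says little. Relative to the all-gene median, the pup difference changed sign in Reln under 5 of 10 alternatives (lowest -0.12), in Ebf2 under 3 (lowest -0.09) and in Trp73 and Ebf3 under 1 each, and the median over members was 0.00065 with a pseudocount of 0.1. Unadjusted, Dab1 changed sign under 4, and Vldlr and Trp73 under 2 each. Why these moved was not tested, except that expected counts are not divided by length and a larger pseudocount shrinks ratios of low genes. Depth limits Ebf3, with 14 counts in pup 3 and 67 in pup 1, and the transcript shares of Lhx1 and Ebf2.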
